A study of Ovis aries with 6 samples.

Results

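The sugar and monocarboxylate transporters described here are the 33 genes, of 23144 in the count table, whose symbols belong to the SLC2A, SLC5A or SLC16A families of solute carriers. The SLC2A family gave 10 genes, the SLC5A family 9 and the SLC16A family 14, and all 33 symbols were found in the RefSeq gene table of the sheep. SLC2A genes encode the GLUT proteins, which let glucose, fructose and related sugars pass down their concentration gradient. SLC5A genes encode carriers that use the sodium gradient to pull in sugars, myo-inositol, vitamins or iodide. SLC16A genes encode the MCT proteins, which carry lactate and pyruvate together with a proton, and, in some members, thyroid hormones or aromatic amino acids instead. In skeletal muscle, insulin and contraction move GLUT4 from vesicles inside the fibre to its surface. Lactate made by fast fibres leaves the cell mainly through MCT4, while MCT1 is known for lactate uptake in oxidative fibres.

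The tissue was longissimus dorsi muscle, taken from ewes aged 1 year, 3 of the Qianhua Mutton Merino breed (QHMM) and 3 of the Small Tail Han breed (STH), each giving 1 library. QHMM was bred by graded crossing of South African Mutton Merino males onto Northeast Fine-wool ewes, and STH is a local Chinese breed. Housing, light and feeding did not differ between the breeds, and the paper names no treatment. Breed is therefore the only labelled difference. The paper reports that live weight was taken after a fast, before slaughter. The levels below are thus not known to be those of fed animals. Fold changes are given as STH vs. QHMM, so that a negative log2 value means a lower level in STH, and values of single libraries are given in the order of replicates 1, 2 and 3. In whole muscle, fewer cells of a type and less RNA per cell cannot be told apart.

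The libraries held 10982191 to 14334544 reads on genes, and 3685 to 7699 of them (0.0272% to 0.0537%) fell on the 33 transporters. At this depth 3 reads correspond to 0.209 to 0.273 CPM (reads scaled to a common library total), which is the most that a count of 0 allows, for counting error only. QHMM replicate 2 and STH replicate 3 had TMM factors of 0.852 and 0.853, against 1.01 to 1.20 in the other 4 libraries, so calls are also given without both. Of 10 skeletal muscle markers, 7 were matched by symbol, and 6 of these had reads in abundance, with a summed level of 115933 to 128565 RPKM in QHMM and 89898 to 137146 RPKM in STH. TNNT3 was listed at 0 in all libraries. Red cell markers were near 0, at no more than 0.403 RPKM in sum. Slow fibre markers summed to 16602 to 24262 RPKM in QHMM and 7333 to 11445 RPKM in STH. Of the 9 tested, edgeR called 4 and DESeq2 8, all down-regulated in STH, and all 9 were lower at an unadjusted edgeR p below 0.05. The 6 adipocyte markers, all with reads, summed to 84.9 to 397 RPKM in QHMM and 50.2 to 160 RPKM in STH. Of these 6, edgeR called 4 and DESeq2 5, all down-regulated, and 5 were lower at an unadjusted edgeR p below 0.05. The fast fibre markers summed to 58472 to 77674 RPKM in QHMM and 51286 to 67819 RPKM in STH, with 0 of 8 called by edgeR, 2 lower at an unadjusted p below 0.05 and 2 called by DESeq2. Over all tested genes, edgeR called 3.45% and DESeq2 7.78% in either direction, and 19.2% had an unadjusted edgeR p below 0.05.

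Which sugar and lactate carriers does this muscle express? Levels between genes are compared as RPKM, the deposited read counts scaled by gene length and library total. Reads were present in every library for 18 of the 33 genes, in some libraries for 7 more, and in none for 8. A mean of at least 1 RPKM was reached by 11 genes. The order was led by SLC16A3, which encodes MCT4, at 62.9 ± 19.9 RPKM (SD, n = 6). SLC2A4, the gene of GLUT4, followed at 46.5 ± 17.5 RPKM, and SLC2A3, which encodes the high-affinity glucose carrier GLUT3, at 24.7 ± 19.6 RPKM. These 3 genes held 73.7% to 85.4% of the summed RPKM of all 33 in each library. They did not form a fixed order, since SLC16A3 was above SLC2A4 in 4 of 6 libraries and SLC2A4 above SLC2A3 in 5 of 6.

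Below them came SLC16A1 (MCT1) at 7.84 ± 2.81 RPKM, SLC16A5 (MCT6) at 6.15 ± 1.36 RPKM and SLC5A6, the sodium-dependent carrier of biotin and pantothenate, at 5.00 ± 1.95 RPKM. SLC16A10, which encodes a carrier of aromatic amino acids and thyroid hormones, stood at 3.54 ± 2.78 RPKM and SLC2A12 (GLUT12) at 3.12 ± 1.60 RPKM. SLC16A7 (MCT2, a high-affinity pyruvate carrier) stood at 1.38 ± 0.647 RPKM and SLC5A3 (a sodium and myo-inositol carrier) at 1.05 ± 0.803 RPKM. None of these neighbours was separated from the next in every library: SLC16A1 was above SLC16A5 in 3 of 6, and SLC16A10 above SLC2A12 in 3 of 6.

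**Figure D1:**
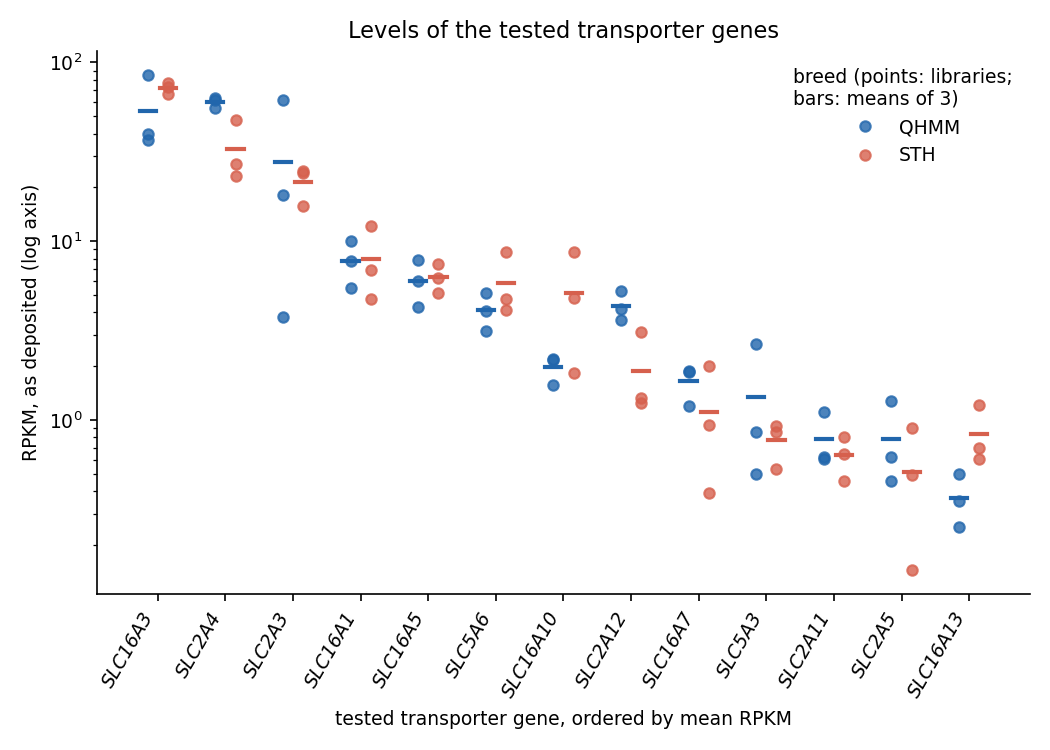
RPKM as deposited (log axis) of 13 tested transporter genes, ordered by their mean over both breeds, with 1 point per library and a bar at each breed mean (n = 3). SLC16A3, SLC2A4 and SLC2A3 stand above the others, and the QHMM points of SLC2A3 run from 3.76 to 61.7 RPKM.

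Several carriers known from other tissues were listed at or near 0. The fast muscle gene TNNT3 was listed at 0 too, so a row at 0 does not by itself show that a gene was silent. No read was counted on SLC2A2 (GLUT2, of liver and pancreatic beta cells), SLC5A1 (SGLT1, of the gut), SLC5A7 (choline uptake in nerve endings), SLC5A9, SLC5A11, SLC5A12, SLC16A4 or SLC16A8 (MCT3, of the retinal pigment epithelium). A further 11 genes had reads but too few to be tested, with at most 28 in any library and a mean of at most 0.535 RPKM. Of these, SLC2A9 (a urate carrier), SLC5A5 (the iodide carrier of the thyroid) and SLC5A10 had at most 3 reads in every library, and SLC2A6, SLC2A10, SLC2A13, SLC16A6, SLC16A9, SLC16A11, SLC16A12 and SLC16A14 had more. SLC2A10 (GLUT10) had 19, 4 and 7 reads in QHMM and 4, 0 and 4 in STH. SLC16A14 had 28, 3 and 9 reads in QHMM and 15, 4 and 7 in STH. In both genes QHMM replicate 1 was the highest library. The breeds overlapped in SLC16A14, and in SLC2A10 their reads met at 4. By normalized counts SLC2A10 did not overlap, with 4.68 to 17.0 in QHMM and 0 to 4.48 in STH, by a narrow margin at a low level.

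In all, 14 transporters passed the filter on low counts and were tested among 12506 genes, 5 of SLC2A, 2 of SLC5A and 7 of SLC16A. A gene was called when its edgeR FDR was below 0.05 and it differed by over 1.5-fold. Under these thresholds 1 of the 14 was called, SLC2A12, which was down-regulated in STH, and this share of 7.14% stands beside 3.45% of all tested genes. By direction, 1 was down-regulated where 1.83% of all genes were, and 0 were up-regulated where 1.62% of all genes were. DESeq2 called 2 of the 14, SLC2A4 and SLC2A12, both down-regulated, beside 7.78% of all genes in either direction and 4.44% in that direction, and it called 0 as up-regulated. Before adjustment, edgeR gave a p-value below 0.05 for 4 of the 14, 2 lower and 2 higher in STH, beside 19.2% of all genes.

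Normalized counts of the breeds did not overlap for 3 of the 14 (21.4%), beside 24.7% of all tested genes. SLC2A4 and SLC2A12 lay lower in every STH library, a pattern that 11.7% of all genes had, and SLC16A13 lay higher, as 13.0% of all genes did. The median log2 fold change of the 14 was -0.44, against 0.023 over all tested genes, and 10 of the 14 values were below 0. Without QHMM replicate 1, 7 of the 14 were below 0 and the median was -0.053, against 0.024 over all genes in that fit. On log2(RPKM + 1) 10 of them could be tested, of which 5 were below 0. The median of these 10 was 0.023, against 0.12 over all genes in that fit. The median absolute log2 fold change of the 14, as reported, was 0.61, against 0.34 over all tested genes. The spread within a breed was also wider, with a median coefficient of variation of 28.6% in QHMM and 33.3% in STH, against 20.7% and 23.9% over all tested genes. Neither of these 2 comparisons was matched for expression level, and SLC2A5, SLC2A11 and SLC16A13 had low means of 16.4, 14.7 and 13.7 normalized counts. With 3 animals against 3, an exact permutation test of a single gene cannot give a p below 0.10.

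**Figure D2:**
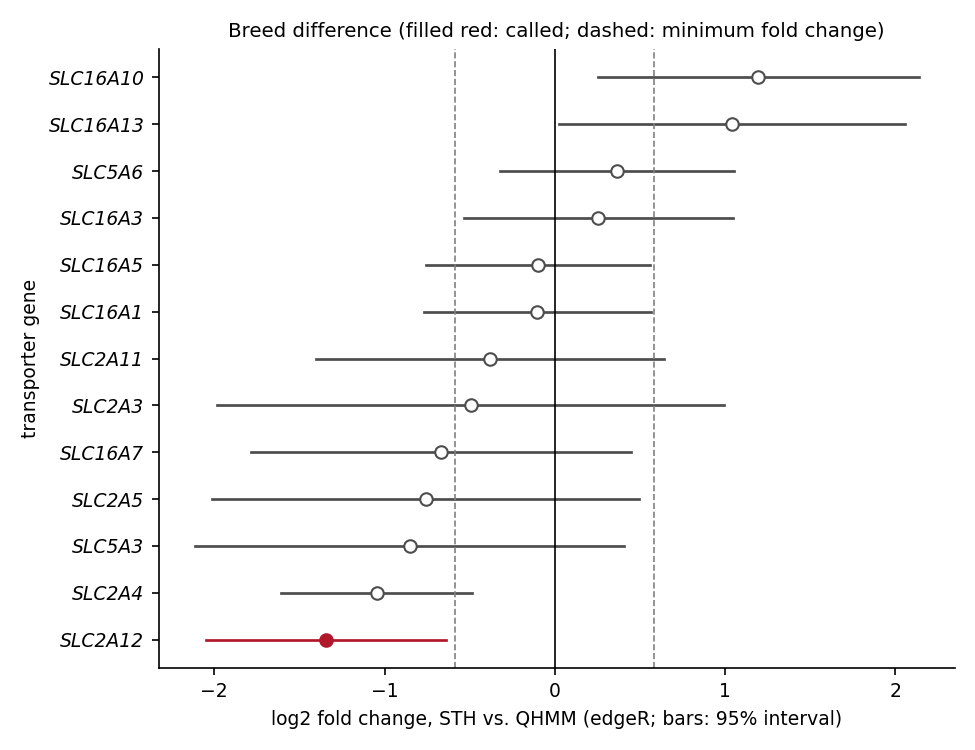
Log2 fold change, STH vs. QHMM, of 13 tested transporters with edgeR 95% intervals (bars), and dashed lines at a 1.5-fold difference. SLC2A12 (filled) was the gene called, SLC2A4 lay next to it at -1.05 with an FDR of 0.0508, and 9 of the 13 intervals include 0.

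SLC2A4 encodes GLUT4, the insulin-responsive glucose carrier of muscle and fat. It had 1756, 2401 and 1928 normalized counts in QHMM and 1284, 787 and 873 in STH. All QHMM libraries lay above all STH libraries. The means were 2028 ± 334 in QHMM and 981 ± 266 in STH (SD, n = 3), a log2 fold change of -1.05 (SE 0.25, 95% interval -1.61 to -0.49), or 2.07-fold lower in STH. The edgeR FDR of 0.0508 missed the threshold and the DESeq2 FDR of 0.00376 passed it. Among all genes ordered by RPKM, SLC2A4 ranked 1046, 903 and 955 in QHMM and 1333, 2097 and 2072 in STH.

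SLC2A12 encodes GLUT12, another glucose carrier of muscle that responds to insulin. It had 145, 149 and 181 normalized counts in QHMM and 90.8, 39.5 and 54.9 in STH. The breeds did not overlap, and the lowest QHMM library was above the highest STH library. Means of 158 ± 19.8 and 61.7 ± 26.3 gave a log2 fold change of -1.34 (SE 0.32, 95% interval -2.05 to -0.64), or 2.54-fold lower in STH, with an edgeR FDR of 0.0488 and a DESeq2 FDR of 0.00402. The FDRs of SLC2A4 and SLC2A12 thus lie on either side of the threshold by a small margin, and a difference in response between the 2 genes was not tested. Their ratio in RPKM, SLC2A4 to SLC2A12, was 13.3, 17.7 and 11.7 in QHMM and 15.5, 21.8 and 17.4 in STH, which overlap.

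Whether either gene was called changed when 1 library was left out, while the log2 fold changes kept their sign. In those fits they were -1.30 to -0.90 for SLC2A4 and -1.76 to -1.13 for SLC2A12. Without STH replicate 1, the STH library with the highest count of each, both were called, with an FDR of 0.0261 for SLC2A4 and 0.0178 for SLC2A12. Without any other single library neither was called, with FDRs of 0.0887 to 0.157 for SLC2A4 and 0.0955 to 0.137 for SLC2A12. The count of all genes called was also lower in those fits, at 131 to 329 against 432 as reported. Without QHMM replicate 2 and STH replicate 3 together the log2 fold changes were -0.84 and -1.32, with FDRs of 0.272 and 0.223. Over all 19 alternatives the direction stayed the same, between -1.30 and -0.84 for SLC2A4 and between -1.76 and -0.94 for SLC2A12.

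**Figure D3:**
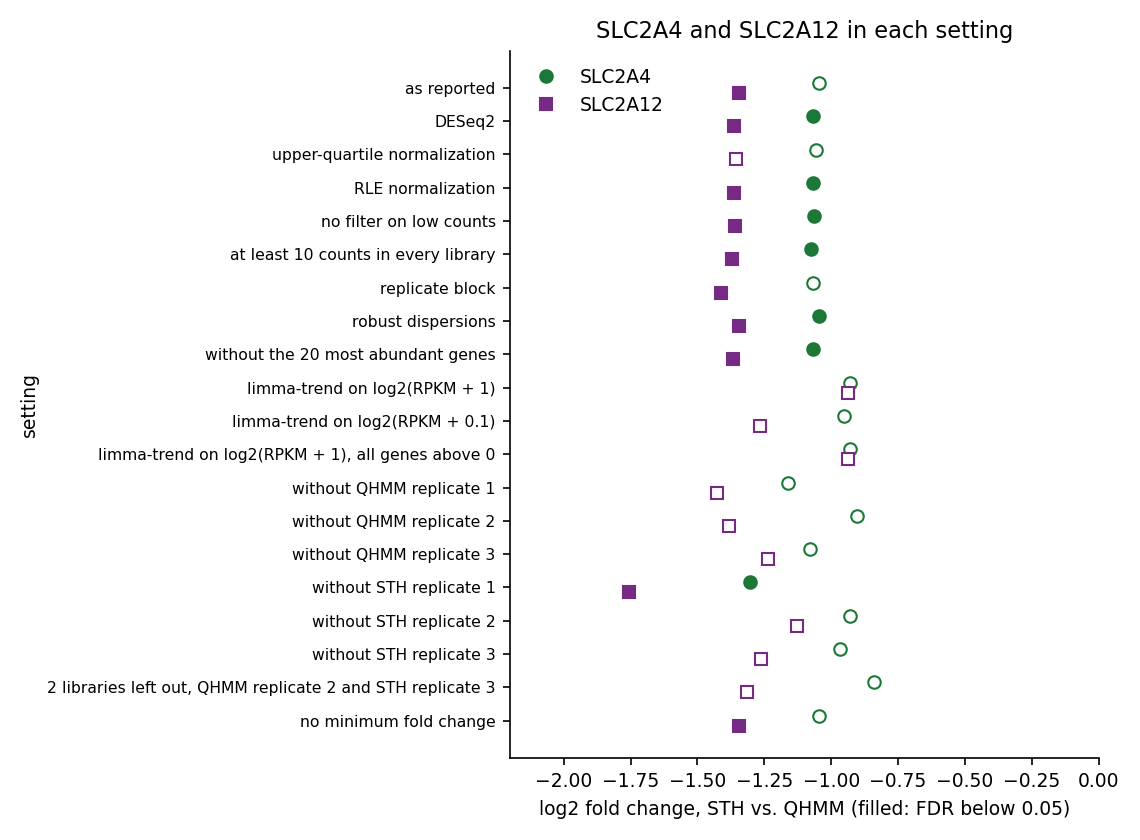
Log2 fold change, STH vs. QHMM, of SLC2A4 (circles) and SLC2A12 (squares) as reported and under each of the 19 alternatives, with a filled symbol where the FDR was below 0.05. All values lie below 0, SLC2A4 is filled in 7 of the alternatives and SLC2A12 in 9.

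Slow fibre and adipocyte markers were lower in STH as well, and so were some fast fibre and fibroblast markers. Their part in the lower SLC2A4 and SLC2A12 was not tested. Of 8 tested fast fibre markers, 2 lay lower without overlap and 0 higher. These were MYLK2 at -1.20 (SE 0.30, edgeR FDR 0.0571) and ACTN3 at -1.02 (SE 0.36, edgeR FDR 0.155). Of 4 tested fibroblast markers, 1 lay lower without overlap and 0 higher, COL1A1 at -1.30 (SE 0.41, edgeR FDR 0.113). Over all tested genes, 11.7% lay lower in this way. The slow myosin heavy chain gene, listed as OMYHCS, fell by 1.34 on the log2 scale (SE 0.26, edgeR FDR 0.0251), and ADIPOQ, the adipocyte hormone adiponectin, fell by 2.13 (SE 0.36, edgeR FDR 0.0143). The adipocyte sums of the libraries were 397, 84.9 and 151 RPKM in QHMM and 160, 83.7 and 50.2 RPKM in STH. Replicate 1 had the highest sum in both breeds. FABP4 gave 104 RPKM of this sum in QHMM replicate 1 and 103 RPKM in STH replicate 1. Its log2 fold change was -0.040 (SE 0.61, edgeR FDR 0.980). Most of the sum of STH replicate 1 thus came from a marker that was not called. ADIPOQ, which was called, had 98.0, 28.4 and 52.2 RPKM in QHMM and 16.7, 17.1 and 10.2 RPKM in STH. The SLC2A4 count of replicate 1 was the lowest of QHMM and the highest of STH.

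SLC2A3, which encodes GLUT3, varied more within a breed than between breeds. It had 3035, 1062 and 182 normalized counts in QHMM and 1007, 1112 and 920 in STH. The QHMM libraries spanned 16.7-fold, with a coefficient of variation of 102%, and all STH libraries lay inside that span with a coefficient of variation of 9.51%. The log2 fold change of -0.49 (SE 0.67, 95% interval -1.98 to 0.995, edgeR FDR 0.743) was 0.68 without QHMM replicate 1. A locus that the count table describes as a pseudogene of SLC2A3, LOC101118377, held reads equal to 0.441% to 1.12% of those of SLC2A3, and how reads that match both were counted was not tested.

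SLC2A5, which encodes the fructose carrier GLUT5, had 4.48 to 32.5 normalized counts and a log2 fold change of -0.76 (SE 0.57, edgeR FDR 0.514). SLC2A11, which encodes GLUT11, had 8.55 to 22.3 normalized counts and a log2 fold change of -0.38 (SE 0.46, edgeR FDR 0.708). The libraries of the breeds overlapped for both genes. By breed alone over all 6 libraries, the 5 tested SLC2A genes were lower in STH with the TMM, upper-quartile and DESeq2 scalings. Their TMM median log2 fold change was -0.76. SLC2A3 was higher in STH on log2(RPKM + 1), at 0.31, although its mean RPKM was lower, at 21.5 against 27.9 in QHMM. It was also higher on TMM-scaled counts, at 0.22, once replicate number was added to the model. The cause of this change of sign was not tested. The count table also lists GLUT-1 (SLC2A1) and GLUT8 (SLC2A8) under older names outside the families' symbols. GLUT-1, the glucose carrier of most cell types, had 85, 19 and 27 reads in QHMM and 67, 66 and 61 in STH, giving a log2 fold change of 0.61 (SE 0.44, edgeR FDR 0.494). GLUT8 had 14 to 44 reads, with a log2 fold change of 0.49 (SE 0.39, edgeR FDR 0.547).

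The share of GLUT4 in the GLUT family differed widely between animals. SLC2A4 made up 44.8%, 73.3% and 83.8% of the summed SLC2A RPKM in QHMM and 61.6%, 49.6% and 56.1% in STH, so the breeds overlapped. With GLUT-1 and GLUT8 added to the sum, the share was 43.5% to 82.0% over the 6 libraries. In QHMM replicate 1 SLC2A3 exceeded SLC2A4, with an SLC2A4 to SLC2A3 ratio of 0.897, and in QHMM replicate 3 the ratio was 16.4. Summed SLC2A RPKM was 123, 86.9 and 73.7 in QHMM and 77.7, 54.5 and 41.3 in STH. STH replicate 1 lay above QHMM replicate 3, so these sums overlapped too.

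**Figure D4:**
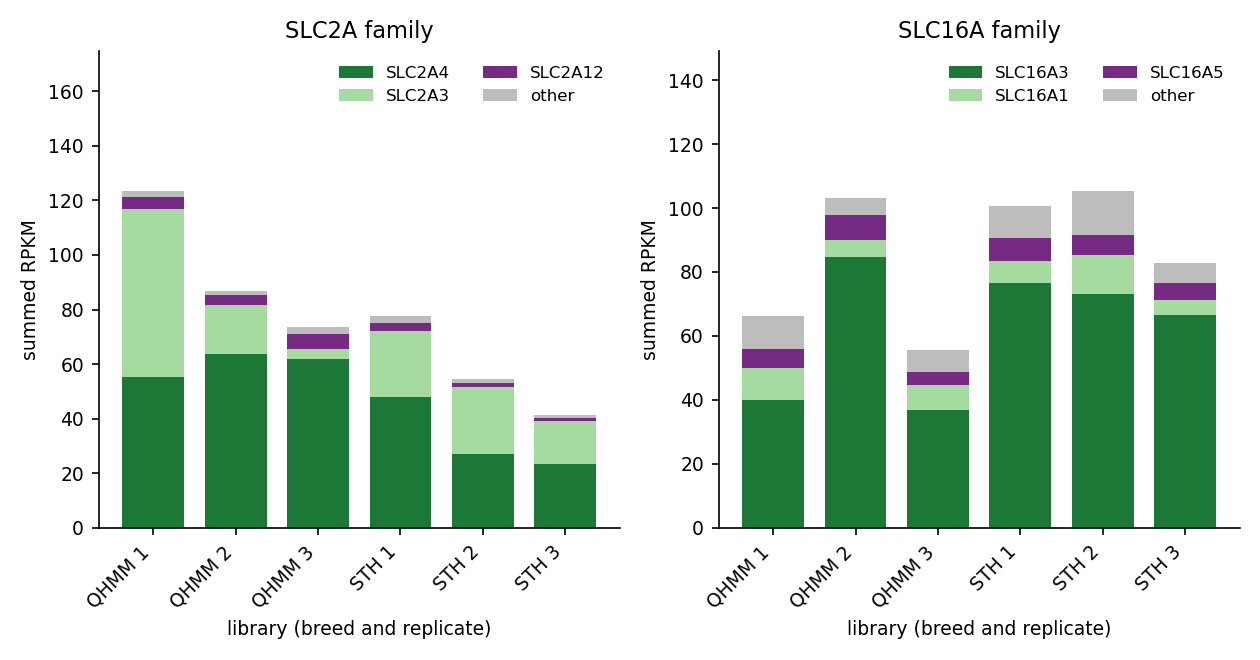
Summed RPKM of the SLC2A and SLC16A genes in each library, stacked by gene, with SLC2A4, SLC2A3 and SLC2A12 or SLC16A3, SLC16A1 and SLC16A5 shown apart from the other members. SLC2A4 and SLC2A3 fill most of each SLC2A bar in proportions that differ between QHMM libraries, and SLC16A3 holds 60.2% to 81.9% of each SLC16A bar.

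Among the lactate carriers, SLC16A3 (MCT4) had 727, 1827 and 658 normalized counts in QHMM and 1176, 1222 and 1437 in STH. QHMM replicate 2 was the highest of all libraries and the other QHMM libraries were the lowest, so the breeds overlapped. The log2 fold change was 0.26 (SE 0.36, 95% interval -0.54 to 1.05, edgeR FDR 0.748), and it was 0.89 without QHMM replicate 2, with an FDR of 0.122. SLC16A1 (MCT1) had 409, 262 and 309 normalized counts in QHMM and 235, 450 and 229 in STH. STH replicate 2 was the highest and the other STH libraries the lowest, and the log2 fold change was -0.10 (SE 0.30, 95% interval -0.77 to 0.56, edgeR FDR 0.893).

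The balance of MCT4 to MCT1 was given by the log2 ratio of SLC16A3 to SLC16A1 in RPKM. It was 1.98, 3.96 and 2.25 in QHMM and 3.48, 2.60 and 3.81 in STH. QHMM replicate 2 and STH replicate 3, the libraries with the lowest TMM factors, had the highest ratio in their breed. They also had the highest log2 ratio of LDHA to LDHB in their breed, at 4.51 and 5.20, where the other libraries had 3.77 to 4.18. The breeds overlapped in both ratios.

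SLC16A5, which encodes MCT6, had 145, 226 and 102 normalized counts in QHMM and 153, 139 and 148 in STH, giving a log2 fold change of -0.10 (SE 0.30, edgeR FDR 0.895). Its coefficient of variation was 40.1% in QHMM and 4.78% in STH, while over the 14 tested members it was larger in QHMM for 7 and in STH for 7. Its share of the summed SLC16A RPKM was 8.08% ± 0.779 in QHMM and 6.51% ± 0.785 in STH. The breeds did not overlap in this share but did in those of SLC16A3 and SLC16A1. The mean RPKM of SLC16A5 itself was 6.02 in QHMM and 6.28 in STH, while the family sum was 75.1 and 96.3. SLC16A7 (MCT2) had 38.6 to 50.9 normalized counts in QHMM and 9.08 to 50.2 in STH, giving a log2 fold change of -0.67 (SE 0.51, edgeR FDR 0.518).

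**Figure D5:**
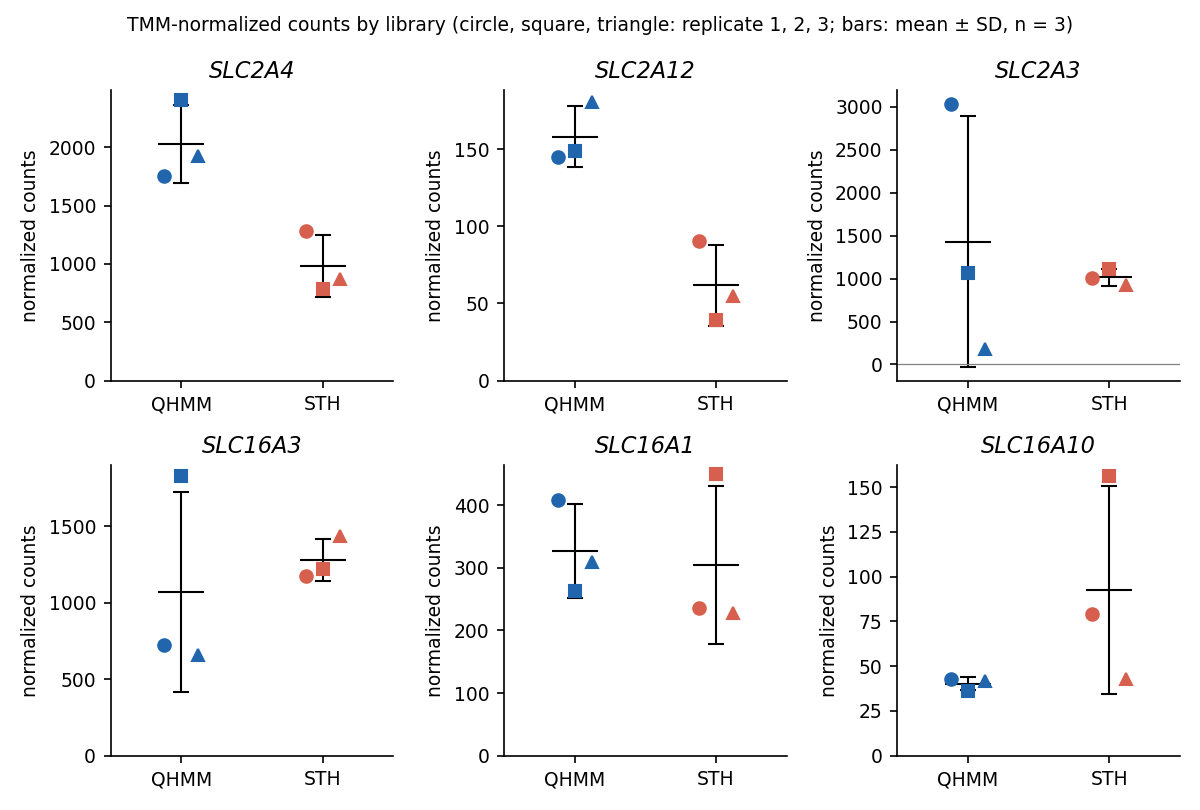
TMM-normalized counts (linear axes) of SLC2A4, SLC2A12, SLC2A3, SLC16A3, SLC16A1 and SLC16A10 in each library, with circle, square and triangle for replicates 1, 2 and 3 and bars for the breed mean ± SD (n = 3). The breeds are apart for SLC2A4 and SLC2A12 and overlap for the other 4 genes, in SLC16A10 by the STH library at 42.6 alone.

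SLC16A10, the carrier of aromatic amino acids and thyroid hormones, had 42.9, 36.3 and 41.6 normalized counts in QHMM and 79.2, 156 and 42.6 in STH. STH replicates 1 and 2 lay above QHMM and STH replicate 3 lay within its range, and the log2 fold change was 1.20 (SE 0.43, 95% interval 0.26 to 2.14) with an unadjusted p of 0.0175 and an edgeR FDR of 0.156.

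SLC16A13, a little-studied member of the family, was near the limit of detection, with 11.6, 7.02 and 8.12 normalized counts in QHMM and 23.9, 15.0 and 16.8 in STH. Every STH library was above every QHMM library, and the log2 fold change of 1.04 (SE 0.46) had an unadjusted p of 0.0451 and an edgeR FDR of 0.249. In RefSeq gene order SLC16A13 lies next to SLC16A11, which is on the opposite strand and had 0 to 13 reads, and 12 protein-coding genes lie between it and SLC2A4. SLC16A13 and SLC2A4 thus lay close together on a chromosome and had log2 fold changes of opposite sign.

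Of the sodium-coupled SLC5A genes, 2 of 9 could be tested. SLC5A6 had 205, 193 and 123 normalized counts in QHMM and 159, 318 and 195 in STH, giving a log2 fold change of 0.37 (SE 0.31, edgeR FDR 0.573). SLC5A3, the myo-inositol carrier that cells use against osmotic stress, had 73.2, 16.4 and 23.3 in QHMM and 12.4, 23.5 and 28.0 in STH. QHMM replicate 1 alone was high, the log2 fold change was -0.85 (SE 0.57, edgeR FDR 0.459), and it was 0.059 without that library. SLC5A3 overlaps MRPS6, a mitochondrial ribosomal protein gene on the same strand, so reads of the 2 genes may not be fully separated. MRPS6 had 311 to 627 normalized counts and a log2 fold change of 0.33 (SE 0.25, edgeR FDR 0.530).

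QHMM replicate 1 was the highest library for SLC2A3, SLC5A3, SLC16A6, SLC2A10 and SLC16A14, by normalized count or, for the last 3, by reads. These genes were picked out after their values had been seen.

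Other genes of the same pathways were taken from 5 lists of 64 genes, of which 57 were matched by symbol and 45 were tested. Across the lists edgeR called 2 as down-regulated and 0 as up-regulated, or 4.44% of the 45 beside 3.45% of all genes, and DESeq2 called 4 and 1. At an unadjusted p below 0.05, 2 were higher and 10 lower, or 26.7% beside 19.2% of all genes. The first list holds genes that sort GLUT4 vesicles and bring them to the surface. Of its 21 tested genes edgeR called 0, with 1 higher and 1 lower at an unadjusted p below 0.05 and 1 called in each direction by DESeq2, and the median log2 fold change was 0.0093. TBC1D4, the Akt substrate that holds GLUT4 vesicles back until insulin acts, had 622, 666 and 893 normalized counts in QHMM and 379, 353 and 445 in STH. Its breeds did not overlap, and the log2 fold change was -0.89 (SE 0.22, edgeR FDR 0.0553). SORT1, the sorting receptor sortilin, had 344 to 508 normalized counts in QHMM and 541 to 1576 in STH, again without overlap, with a log2 fold change of 1.25 (SE 0.35, edgeR FDR 0.0787). TBC1D1, the relative of TBC1D4 that responds to contraction, was at 0.029 (SE 0.27, edgeR FDR 0.969).

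The second list holds enzymes that trap or first convert sugars after entry. EdgeR called 0 of its 8 tested genes, with 2 lower at an unadjusted p below 0.05, and DESeq2 called 0. All 8 had a lower value in STH with each scaling that tested them, and the median log2 fold change was -0.25. Without STH replicate 2 HK2 was higher in STH, and without STH replicate 3 HK3 was higher and the median was -0.56. HK1, the hexokinase found in most tissues, was at -0.56 (SE 0.22, edgeR FDR 0.203), and KHK, which phosphorylates fructose, at -0.83 (SE 0.31, edgeR FDR 0.168). HK2, the main hexokinase of insulin-responsive tissues, had 253 to 404 normalized counts in QHMM and 125 to 446 in STH, giving a log2 fold change of -0.18 (SE 0.39, edgeR FDR 0.848). TXNIP was not matched by symbol.

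The third list covers lactate and pyruvate. LDHB, the lactate dehydrogenase subunit of oxidative tissue, was the gene that edgeR called of its 7 tested, where 1 was higher and 5 lower at an unadjusted p below 0.05 and DESeq2 called 2 as down-regulated. It had 1727, 1378 and 1735 normalized counts in QHMM and 990, 784 and 729 in STH. It fell by 0.95 on the log2 scale (SE 0.22, edgeR FDR 0.0459). LDHD, a D-lactate dehydrogenase, was at -0.88 (SE 0.23, edgeR FDR 0.0663), and MPC1, a subunit of the mitochondrial pyruvate carrier, at -0.52 (SE 0.22, edgeR FDR 0.238), both without overlap of the breeds. LDHA, the subunit of fast muscle, had 37468 to 45103 normalized counts in QHMM and 19071 to 38383 in STH, giving a log2 fold change of -0.73 (SE 0.32, edgeR FDR 0.243). BSG, the chaperone that brings MCT1 and MCT4 to the cell surface, had 4666, 4574 and 2894 normalized counts in QHMM and 2652, 1925 and 2836 in STH. Its breeds did not overlap by a narrow margin, and the log2 fold change was -0.71 (SE 0.27, edgeR FDR 0.180). EMB, an alternative chaperone of MCT proteins, had at most 5.85 normalized counts. NPTN, a further partner of MCT proteins, had 453 to 532 normalized counts in QHMM and 627 to 764 in STH, giving a log2 fold change of 0.52 (SE 0.20, edgeR FDR 0.188). NPTN, LDHD and MPC1 were named after their values had been seen.

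In the list on thyroid hormone, 2 genes could be tested. THRSP, a hormone-responsive gene of fat synthesis, was down-regulated in STH, with 813, 107 and 153 normalized counts in QHMM and 3.30, 11.8 and 47.1 in STH and a log2 fold change of -4.16 (SE 0.92, edgeR FDR 0.0397). QHMM replicate 1, which also had the highest adipocyte marker sum, was the highest, and the part of adipocytes in the value was not tested. THRA, the thyroid hormone receptor alpha, was at -0.24 (SE 0.29, edgeR FDR 0.711). DIO2, the deiodinase that activates the hormone, had at most 7.11 normalized counts in any library and was not tested. In the list on osmolytes and inositol, edgeR and DESeq2 called 0 of 8, with 1 lower at an unadjusted p below 0.05, and the median log2 fold change was 0.040. SLC6A6, the taurine carrier, was at -1.50 (SE 0.52, edgeR FDR 0.148), IMPA2, an inositol monophosphatase, at 0.50 (SE 0.31, edgeR FDR 0.421), and NFAT5, the factor that drives SLC5A3 under osmotic stress, at 0.095 (SE 0.38, edgeR FDR 0.924).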

How the data were processed

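Total RNA was extracted from longissimus dorsi with TRIzol, and libraries of poly(A) RNA were read on an Ion Proton instrument. The authors mapped filtered reads to the sheep genome Oar 3.1 and deposited raw counts of uniquely mapped reads per gene and RPKM values. The deposited RPKM values use the library total on genes. The aligner, counter, annotation and strand setting are not given in the sources used here. Counts were tested with edgeR 4.0.16 in R 4.3.3 (TMM, filterByExpr, quasi-likelihood F test on breed, Benjamini-Hochberg over 12506 genes). The study's EBSeq was replaced by edgeR. Normalized counts are counts divided by the effective library size and multiplied by its mean. SEs were derived from the F statistic. The RPKM join covered 23119 genes, since 25 names had been turned into dates. Alternatives used DESeq2 1.42.0 and limma 3.58.1. The tests were also run on simulated counts. These did not copy the TMM factors of the libraries, so they cannot show how stable the calls are. P-values test the breed difference against the spread between the 3 animals of each breed, which is estimated with information shared over all tested genes.

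Counts and medians cover all 33 members, of which 1 is not reported here by name. Values in every library are given by rule for members with a mean of at least 20 normalized counts that were called, did not overlap, or were among the 5 highest by mean RPKM. Those of SLC16A10, SLC16A13, SLC5A6, SLC5A3, SLC2A10 and SLC16A14 were added after their values had been seen, as were those of GLUT-1. Members and gene lists were chosen with earlier results of these data known. RefSeq assembly ARS-UI_Ramb_v3.0 served for gene names and gene order only, and no sequence is shown.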

Additional observations from a re-analysis of the deposited data

How the results depend on the processing

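In all, 12 alternatives with all 6 libraries, 6 fits that each left out 1 library, and 1 fit without QHMM replicate 2 and STH replicate 3, chosen after seeing the data, were compared. The count of transporters called, 1 as reported and all down-regulated, was 2 with DESeq2, RLE normalization, no filter, at least 10 counts in every library, robust dispersions and without the 20 most abundant genes. It was 0 with upper-quartile normalization, the 3 limma-trend fits on RPKM and the fit without both libraries, and 0 to 2 in the fits that left out 1 library. In every alternative 0 transporters were called as up-regulated. The count over all genes, 432 as reported, was 973 with DESeq2, 806 with no filter, 78 with limma-trend on every gene above 0 and 11 without both libraries, and 131 to 535 when 1 library was left out (131 without QHMM replicate 1, 208 without QHMM replicate 2, 150 without QHMM replicate 3 and 183 without STH replicate 2). The count of pathway genes, 2 as reported, was 5 with DESeq2, 4 with no filter, 1 with robust dispersions and with limma-trend on log2(RPKM + 1) or log2(RPKM + 0.1), 0 with limma-trend on every gene above 0 and without both libraries, and 0 to 2 when 1 library was left out. Of the fits that left out 1 library, LDHB was called only without STH replicate 1, and THRSP only without QHMM replicate 2 or without STH replicate 3.

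SLC2A3 turned to 0.22 with the replicate block, 0.31 with limma-trend on log2(RPKM + 1), with and without the filter, and 0.38 on log2(RPKM + 0.1), and ranged from -1.01 to 0.68 when 1 library was left out. SLC16A5 turned to 0.071, 0.071 and 0.086 in those RPKM fits and to 0.24 without both libraries, and ranged from -0.33 to 0.25. When 1 library was left out, SLC5A3 ranged from -1.20 to 0.059 and SLC16A1 from -0.51 to 0.069. None of these 4 genes was called in any alternative, and the cause was not tested. On log2(RPKM + 1) and log2(RPKM + 0.1), which carry no TMM scaling, the median log2 fold change of all genes was 0.12 and 0.14, against 0.023 as reported, and 61.3% and 61.9% of calls were up-regulated, against 47.0%. With every gene above 0 that share was 69.2%. Without QHMM replicate 1 it was 38.2%.

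Same-numbered animals of the breeds had deviations from their breed means that correlated across genes at 0.226, -0.038 and -0.13. The highest value of any pair was 0.287, between QHMM replicate 2 and STH replicate 3. No pairing by replicate number was seen, though 3 libraries a breed cannot exclude one. With the number as a block 1 transporter, 457 genes and 0 pathway genes were called. Leaving out 1 library at a time moved the breed difference in the SLC2A4 share between -22.8 and -3.28 percentage points, in the SLC16A3 share between 1.23 and 12.1 points, and in the log2 SLC16A3 to SLC16A1 ratio between 0.19 and 1.18.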
